A study of Mus musculus with 319 samples.

Results

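Medullary epithelial maturation regulators are described here by 10 genes listed by name for their known roles, Tnfrsf11a, Cd40, Ltbr, Relb, Nfkb2, Aire, Fezf2, Cd80, Cd86 and Irf7. All 10 were found among the 48795 gene entries of the deposited count tables. The genes were measured in single thymic cells sorted for Flare25, a reporter of Il25, a cytokine of tuft cells. Each well of a plate received 1 cell, and polyadenylated RNA was read along its whole length by Smart-seq2, with ERCC spike-in RNA and no molecular identifiers.

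Wild-type cells came from naive mice of strain C57BL/6.Il25, genotype Flare25/Flare25, aged 6 weeks. They form 3 sets, June5 and June29 of batch 1 and a set from batch 2 (WT batch 2). The fourth set, called the Aire-/- set after its label, came from mice of strain C57BL/6.Il25.Aire that were Flare25/Flare25 and Aire-/- by genotype. Its wells were all in batch 2, and their mice were 6 weeks old except for 1 well labelled 5 weeks. All mice were naive and of mixed sex, and all cells, wild type included, carried the Flare25 alleles and passed a gate of UVBlue-, CD11c-, CD45-, EPCAM+, MHCIIlo and Flare25+. Thymi were pooled and no animals are named, so each set is 1 sample, no test was made and no value has an error across animals. The allele behind the Aire-/- label is not described in the labels, so reads counted over the whole Aire gene do not check the deletion.

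Medullary thymic epithelial cells (mTEC) present tissue antigens to developing T cells. Their maturation is driven by the receptors RANK, CD40 and the lymphotoxin beta receptor on the epithelial cell, which signal through the non-canonical NF-kB pathway, in which p100 is processed to p52 and pairs with RelB. Mature mTEC express Aire, Fezf2, MHC class II and the costimulatory proteins CD80 and CD86. Thymic tuft cells are a medullary epithelial type, and their sort gate here asked for low surface MHC class II.

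After filtering, 29 of 31 June5 wells, 87 of 95 June29 wells, 89 of 92 WT batch 2 wells and 96 of 96 Aire-/- wells were kept, 301 cells in all. Median gene reads per cell were 539655, 1150167, 566923 and 638298 in that order. At least 2 tuft markers had 5 or more reads in 29 of 29, 87 of 87, 88 of 89 and 95 of 96 cells, and the 12 tuft markers summed to between 13470 and 17321 reads per 1000000 gene reads (CPM) in each set. At least 2 markers of a B cell, dendritic cell or macrophage, or thymocyte list were found in 11, 29, 13 and 18 cells, although the gate was CD45-. The Aire-/- well kw_tuft_173 stood apart with 117009 CPM of MHC class II genes against a set median of 1935. Its tuft sum was also low, at 927 CPM against a set median of 14780, but other kept cells were lower. The lowest tuft sum was 102.7 CPM in the Aire-/- set, 344.6 CPM in June29 and 15.5 CPM in WT batch 2. A low tuft sum was thus not particular to well kw_tuft_173. CPM levels of the 10 genes in the Aire-/- set, and their folds over both plates, are therefore given with and without this well where it had reads of them. Its shares of positive cells moved by at most 1.02 points for any of the 10 genes without it.

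Levels are the summed reads of a set in CPM, and a positive cell is one with 5 or more reads of the gene. Intervals are at the 95% level, exact Poisson for CPM and exact Clopper-Pearson for shares, and they cover counting error only, since several reads can stem from 1 molecule. A gene passed the size rule, which is not a test, if 3 things held: its higher level was 20 CPM or more, its log2 fold with 1 CPM added to both levels was 1 or more in size, and its share of positive cells differed by 15 points or more the same way.

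NF-kB dimers bind kappaB elements, and a loose 10-letter form of that element, read as GGGA, any 4 bases and CC on either strand, was looked for in the RefSeq promoter windows (GRCm38.p6, 250 bases before to 50 bases after each start). The motif was in 20.7% of all 32851 windows. Of the 10 genes, 7 had a window, and Fezf2, Cd80 and Nfkb2 held a match, Nfkb2 in each of its 3 windows. These stretches of 30 bases are shown because Nfkb2 was the NF-kB subunit gene of the 10 found in more cells and carried 5 of the 7 matches. Each is written 5′ to 3′ on the strand of its gene, with the match in capitals as it reads on that strand.
Nfkb2, chr19:46304688-46304717, plus strand: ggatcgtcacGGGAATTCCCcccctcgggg
Nfkb2, chr19:46304717-46304746, plus strand: gggccgaaagGGGCTTTCCCggctggagcc
Nfkb2, chr19:46305449-46305478, plus strand: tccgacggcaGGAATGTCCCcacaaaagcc
Nfkb2, chr19:46305695-46305724, plus strand: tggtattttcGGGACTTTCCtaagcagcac
Nfkb2, chr19:46305810-46305839, plus strand: ggaggagatcGGACCCTCCCccagatctga
Fezf2, chr14:12346019-12346048, minus strand: tagcgcgtcgGGGACACCCCgccttccccg
Cd80, chr16:38458713-38458742, plus strand: ggggttgggtGGGAACCACCtcactgtgtt
The first Nfkb2 stretch reads as a match on both strands, and the others on a single strand. A match describes letters only and says nothing of binding. The windows of Aire, Tnfrsf11a, Ltbr and Irf7 held no match.

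Sorted tuft cells held RNA of the receptors, with Ltbr in the most cells and Cd40 in the fewest. Ltbr encodes the lymphotoxin beta receptor and lies on chromosome 6 from 125306571 to 125313885 (GRCm38). The wild-type Ltbr levels were 36.3, 57.1 and 65.4 CPM (June5, June29 and WT batch 2 in turn) and the Aire-/- level was 68.3 CPM. Positive cells made up 24.1%, 26.4%, 33.7% and 37.5%, and in each set the lowest and the median cell had 0 CPM, with the highest cell at 229, 928, 1562 and 528 CPM. The cells of the 4 sets overlap between 0 and 229 CPM. Between the Aire-/- set and WT batch 2 the log2 fold was 0.06, and it was 0.10 without well kw_tuft_173, in which Ltbr had 0 reads.

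Tnfrsf11a encodes RANK, the receptor of RANK ligand, and lies on chromosome 1 from 105780718 to 105847981. It had wild-type levels of 40.1, 9.87 and 15.3 CPM (June5, June29 and WT batch 2 in turn) and an Aire-/- level of 32.3 CPM (27.04 without well kw_tuft_173). A few cells carried these sums: of the reads, the top 3 cells held 95.1%, 67.9% and 77.8% in the wild-type sets and 42.1% in the Aire-/- set. Positive cells made up 20.7% (interval 7.99 to 39.7), 16.1% (9.09 to 25.5), 10.1% (4.73 to 18.3) and 18.8% (11.5 to 28), and these intervals overlap. The highest cell reached 532, 647, 611 and 307 CPM, and the median cell of every set was at 0. The log2 fold of the Aire-/- set over WT batch 2 was 1.03, or 0.78 without well kw_tuft_173, with shares 8.64 points apart, which does not meet the size rule.

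Cd40, the gene of a receptor for CD40 ligand on chromosome 2 from 165055627 to 165072948, was read at 5 or more reads in 5 of the 301 cells. No June5 cell had a Cd40 read, and a count of 0 there allows up to 0.12 CPM, taken as 3 reads of the set's total. June29 had 2.76 CPM, of which 99.3% came from well 88, WT batch 2 had 0.56 CPM from well kw_tuft_57 alone, and the Aire-/- set had 21.04 CPM from wells kw_tuft_173, kw_tuft_180 and kw_tuft_25, with 12.0 CPM left without well kw_tuft_173. Shares of positive cells were 1.15%, 1.12% and 3.12% in those sets. The log2 fold of 3.82 over WT batch 2 (3.06 without well kw_tuft_173) therefore rests on 3 cells against 1.

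The Cd40-positive cells differed from the rest in other measured genes, which is given as a description of 5 cells. All 5 were positive for Relb and for Nfkb2, and 4 of them for Aire. Their median tuft sum was 3228 CPM against 14738 in the other 296 cells, and their median MHC class II sum was 25213 CPM against 798. June29 well 88 also held 4005 reads of Ptprc, the gene of CD45 that the gate excluded, with 3 dendritic cell or macrophage markers and 4 thymocyte markers at 5 or more reads. WT batch 2 well kw_tuft_57 held 3 dendritic cell or macrophage markers and 0 reads of Ptprc. The part of other cells in these wells was not tested.

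**Figure D1:**
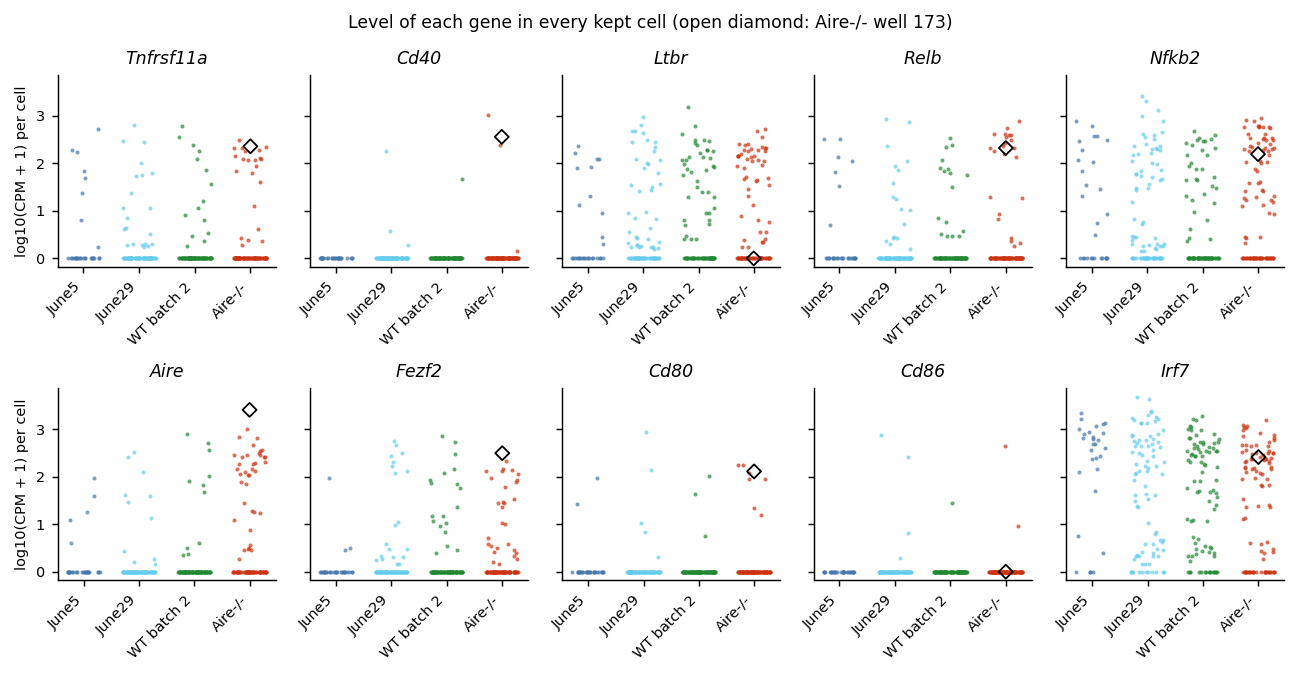
Level of each of the 10 genes in every kept cell, as log10 of CPM plus 1, for June5, June29, WT batch 2 and Aire-/-, with 1 point a cell and well kw_tuft_173 as an open diamond. Points at 0 are cells without a read. Irf7 and Nfkb2 were read in the most cells, Cd40 and Cd86 in the fewest, and well kw_tuft_173 is the highest Aire cell.

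Of the 2 non-canonical NF-kB subunits, Nfkb2 was in more cells than Relb in each set. Nfkb2, on chromosome 19 from 46304320 to 46312385, encodes p100, the precursor of p52. The wild-type Nfkb2 levels were 116.6, 124.96 and 68.99 CPM (June5, June29 and WT batch 2 in turn) and the Aire-/- level was 102.05 CPM (100.6 without well kw_tuft_173). The median cell was at 4.58, 1.46, 0 and 15.1 CPM, the lowest at 0 in each set, and the highest at 782, 2674, 476 and 894 CPM. Positive cells made up 41.4%, 42.5%, 31.5% (22.03 to 42.2) and 51.04% (40.6 to 61.4).

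The share of Nfkb2-positive cells was thus 19.6 points higher in the Aire-/- set than in WT batch 2, at a log2 fold of 0.56 (0.54 without well kw_tuft_173), below the size rule. The deposited labels split the batch 2 wells into 2 groups, each with both genotypes, in a column headed Batch. These groups are called plate 1 and plate 2 here, a name that the column does not give. On plate 1 the fold was 1.02 with shares 25 points apart, which passes the rule as 2.65% of genes did upwards, and on plate 2 it was 0.15 with shares 13.4 points apart. The batch 1 wild-type shares of 41.4% and 42.5% lay between those of the batch 2 sets. After each cell was thinned to 231697 reads, positive shares were 43.5%, 38.8%, 29.1% and 42.9%.

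Relb, on chromosome 7 from 19606217 to 19629438, encodes the partner of p52. It had wild-type levels of 18.8, 34.8 and 20.4 CPM (June5, June29 and WT batch 2 in turn) and an Aire-/- level of 63.5 CPM (59.6 without well kw_tuft_173). Positive cells made up 17.2%, 12.6%, 11.2% and 18.8%, the median cell of each set had 0 CPM, and the highest cell had 318, 876, 345 and 780 CPM. The sets overlapped, and single high cells set the sums: the top 3 cells held between 45.6% and 82% of Relb reads in each set.

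The Relb log2 fold over WT batch 2 was 1.59 (1.5 without well kw_tuft_173) and turned with the plate. Plate 1 had 29.2 CPM in the Aire-/- set against 33.8 in WT, a log2 fold of -0.20 with equal shares of 16.7%. Plate 2 had 98.2 CPM against 4.03, a log2 fold of 4.30 (4.21 without well kw_tuft_173) with shares of 20.8% and 4.88%, which passes the size rule as 3.62% of genes did upwards on that plate. Over both plates the shares were 7.51 points apart, which does not. The wild-type wells of plate 2 thus held 2 positive cells of 41.

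Relb and Nfkb2 were often in the same cells. Of 44 Relb-positive cells, 29 (65.9%) were Nfkb2-positive, against 37.7% of the other 257. The direction was the same within each set, with 4 of 5 against 33.3% for June5, 63.6% against 39.5% for June29, 6 of 10 against 27.8% for WT batch 2, and 66.7% against 47.4% for the Aire-/- set. Relb-positive cells were also read more deeply, with a median of 928414 gene reads against 694600. At equal depth the shares were 51.3% and 35.3%.

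Aire RNA was found in tuft cells of every set and was highest in the Aire-/- set. Aire, on chromosome 10 from 78030022 to 78043610, encodes the nuclear regulator of tissue antigen expression in mTEC. The wild-type Aire levels were 7.84, 11.2 and 18.9 CPM (June5, June29 and WT batch 2 in turn) and the Aire-/- level was 152.7 CPM, or 88.8 without well kw_tuft_173. Positive cells numbered 5 of 29 (17.2%, interval 5.85 to 35.8), 7 of 87 (8.05%, 3.30 to 15.9), 7 of 89 (7.87%, 3.22 to 15.5) and 32 of 96 (33.3%, 24.04 to 43.7). The lowest and the median cell of each set had 0 CPM, and the highest had 92.3, 336, 783 and 2542 CPM, or 1001 in the Aire-/- set without well kw_tuft_173.

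Among positive cells alone the sets also differed. The median positive cell was at 17.1, 39.3 and 101.4 CPM in June5, June29 and WT batch 2, and at 187.1 CPM in the Aire-/- set. Both the share of positive cells and their level were thus highest under the Aire-/- label, while ranges overlapped, since the wild-type cells reached 783 CPM and the lowest positive cell labelled Aire-/- had 11.01 CPM. After thinning to equal depth, positive shares were 8.70%, 7.06%, 8.86% and 27.4%.

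Aire was the 1 gene of the 10 that passed the size rule between the Aire-/- set and WT batch 2, where 1.02% of 8267 genes compared passed it upwards and 0.399% downwards. Its log2 fold was 2.95 with shares 25.5 points apart, 2.17 without well kw_tuft_173 (where 1.13% of genes passed upwards), 2.44 on plate 1 and 3.22 on plate 2. Well kw_tuft_173 held 62.6% of the Aire reads of the Aire-/- set on plate 2, and without it the plate 2 fold was 1.89. Without the cells that held haematopoietic markers the fold over both plates was 3.56. Aire passed in each of 12 alternative choices, with folds between 2.00 and 3.56, and the 1.89 is not among these choices. Since 1 pool stands for each genotype, genotype and pool cannot be told apart.

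The neighbouring gene Dnmt3l bears on how the Aire reads are counted. Dnmt3l, on the opposite strand of chromosome 10 from 78041947 to 78063622, shares 1664 bases with the Aire gene, and 67 bases of exons of both genes overlap. Of the 3825 exonic bases of Aire, 681 lie within the Dnmt3l gene, and whether strand was used in counting is not given in the sources used here. Dnmt3l was positive in 14 of the 32 Aire-positive Aire-/- cells and in 6 of the 64 others, but in 0 of the 19 Aire-positive wild-type cells and 1 other wild-type cell. Over the sets Dnmt3l stood at 87.4 CPM (Aire-/- set) and 0.10 CPM (WT batch 2), a log2 fold of 6.32 (6.05 without well kw_tuft_173) that passes the size rule and is larger than that of Aire. Reads of the pair can therefore not be told apart where they overlap, and the part of Dnmt3l in the Aire level was not tested.

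Aire-positive cells held tuft markers and, except in June29, more MHC class II RNA than the other cells. All 51 had at least 6 tuft markers at 5 or more reads, and their median tuft sum was 14371 CPM against 14579 in the other 250 cells. Their median MHC class II sum was 2360 CPM against 657 CPM. It was 2872 against 1516 CPM in the Aire-/- set and 1019 against 539 in the wild-type cells together, but 188.2 against 365 in June29. Haematopoietic markers were found in 18 of the 51 and in 53 of the 250 cells. Among wild-type cells they were in 10 of the 19 Aire-positive (5 of 7 in June29) and 23.1% of the other cells, and their part was not tested.

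**Figure D2:**
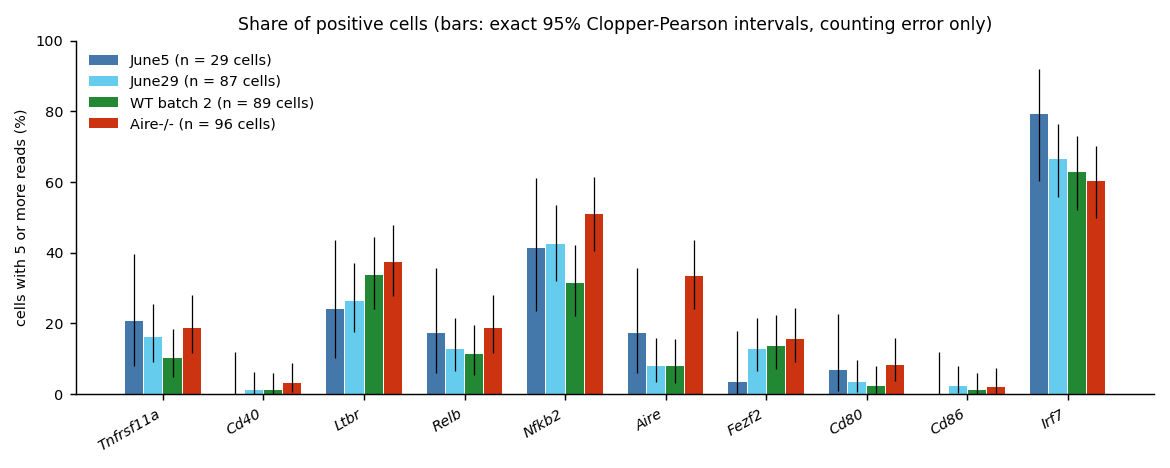
Share of cells with 5 or more reads of each gene in percent, with bars for June5 (29 cells), June29 (87), WT batch 2 (89) and Aire-/- (96), and lines for exact 95% Clopper-Pearson intervals, which cover counting error only. Aire stands at 33.3% in Aire-/- against 7.87% in WT batch 2, while the intervals of the other genes overlap between these sets.

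Fezf2, on chromosome 14 from 12342094 to 12348189, encodes a zinc finger factor that controls other tissue antigens in mTEC. It had wild-type levels of 5.36, 29.6 and 29.7 CPM (June5, June29 and WT batch 2 in turn) and an Aire-/- level of 19.8 CPM, or 12.0 without well kw_tuft_173. Positive cells made up 3.45% (1 cell), 12.6%, 13.5% and 15.6%, the median cell of each set was at 0, and the highest cell had 93.9, 572, 699 and 311 CPM. The share and the level went opposite ways, as the log2 fold was -0.56 with the share 2.14 points higher in the Aire-/- set. Without well kw_tuft_173, which held 41% of the Fezf2 reads of its set, the log2 fold was -1.24, still with shares less than 15 points apart. WT batch 2 well kw_tuft_102 in turn held 37.03% of the Fezf2 reads of its set, and without it alone the fold turned to 0.05, so the direction of the Fezf2 fold rests on single cells. Well kw_tuft_102 had the lowest tuft sum of WT batch 2, at 15.5 CPM. It was the cell of that set without 2 tuft markers at 5 or more reads. It also counts among the Fezf2-positive cells with Ltbr given next.

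Few cells held both Aire and Fezf2. Of the 51 Aire-positive cells, 5 were Fezf2-positive (9.80%), against 13.6% of the others, and at equal depth the shares were 10.5% and 10.3%. Fezf2-positive cells held Ltbr more often, in 22 of 39 (56.4%) against 28.2% of the other cells. That direction held in each of the 4 sets, with 1 Fezf2-positive cell in June5, 36.4% against 25% in June29, 9 of 12 against 27.3% in WT batch 2 and 53.3% against 34.6% in the Aire-/- set. At equal depth the shares over all cells were 53.6% and 27.6%.

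Aire-positive cells held Nfkb2 in 35 of 51 cases (68.6%), against 36.4% of the other cells. Within the sets the shares were 100% against 29.2% (June5), 57.1% against 41.2% (June29), 42.9% against 30.5% (WT batch 2) and 71.9% against 40.6% (Aire-/- set). Aire-positive cells were read more deeply, with a median of 912154 gene reads against 701276, and at equal depth the shares were 60.5% and 33.9%. Relb followed the same direction, with 27.5% against 12.0%, and 34.2% against 11.2% at equal depth. Ltbr at equal depth was at 34.2% against 29.6%, and Irf7 at 50.0% against 62.7%. These 2 directions were not shared by all sets. Ltbr was at 30.4% against 39.3% in the Aire-/- set. Irf7 was at 100% against 76.2% in June5 (2 Aire-positive cells) and 66.7% against 59.5% in June29. The remaining sets followed the direction over all cells.

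**Figure D3:**
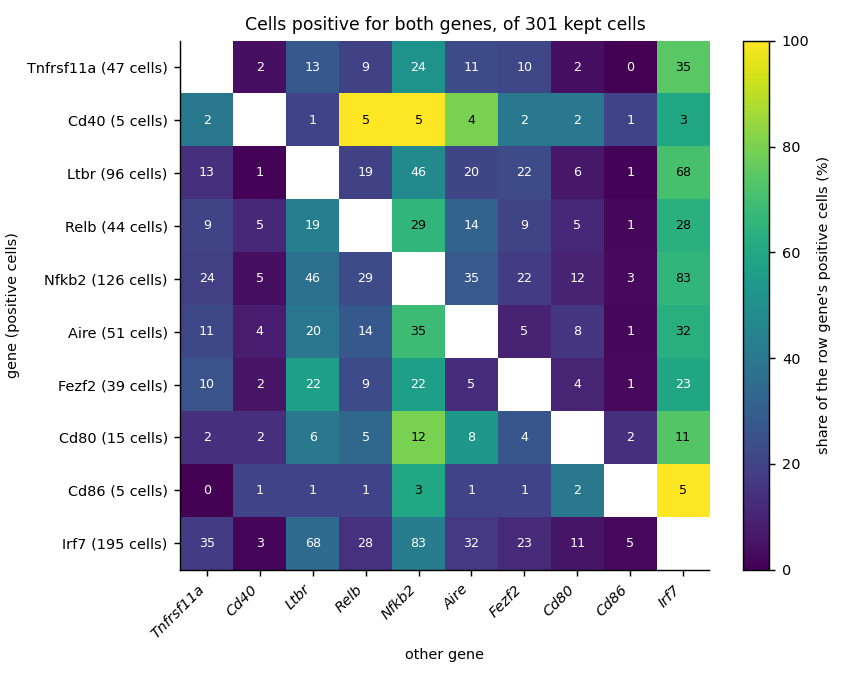
Number of cells positive for both genes of a pair among the 301 kept cells, with the gene of the row and its positive cells on the left, the other gene below, and colour for the share of the row's positive cells in percent. All 5 Cd40-positive cells were Relb- and Nfkb2-positive, while 5 of 51 Aire-positive cells were Fezf2-positive.

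The costimulatory ligands were rare. Cd80, on chromosome 16 from 38455561 to 38496335, encodes a ligand of CD28 and CTLA-4, and had wild-type levels of 7.92, 6.74 and 1.71 CPM (June5, June29 and WT batch 2 in turn) and an Aire-/- level of 8.24 CPM (5.04 without well kw_tuft_173). It was positive in 2, 3, 2 and 8 cells, with highest cells at 92.8, 858, 100 and 178.9 CPM, so the sets overlapped. Of the 15 Cd80-positive cells, 12 were Nfkb2-positive and 8 Aire-positive. Cd80 was thus in 15.7% of Aire-positive cells against 2.80% of the others, and in 10.5% against 3.004% at equal depth. That direction was not shared by all sets: at equal depth Cd80 was in 0 of 2 Aire-positive and 2 of 21 other June5 cells, 1 of 6 and 1 of 79 in June29, 0 of 7 and 2 of 72 for WT batch 2, and 3 of 23 and 2 of 61 for Aire-/-.

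Cd86, a second ligand of the same receptors on chromosome 16 from 36603869 to 36666081, was positive in 0, 2, 1 and 2 cells. No June5 cell had a read, which by the same limit of 3 reads allows up to 0.12 CPM. The sums were 12.4 CPM (June29), 0.19 CPM (WT batch 2) and 2.59 CPM (Aire-/- set), and well 88, the June29 cell with Ptprc reads, held 93.2% of the June29 Cd86 reads. Well kw_tuft_173 had 0 reads of Cd86, in contrast to its Cd80. Neither ligand reached 20 CPM in a batch 2 set, so neither was compared by the size rule.

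Irf7 was the member found in the most cells and the one highest per length. Irf7, on chromosome 7 from 141262706 to 141266481, encodes a transcription factor of the interferon response. The wild-type Irf7 levels were 479, 432 and 284 CPM (June5, June29 and WT batch 2 in turn) and the Aire-/- level was 186.3 CPM (184.3 without well kw_tuft_173). The median cell had 478.5, 113.5, 80.5 and 100.6 CPM, the lowest cell of each set 0, and the highest 2196, 4839, 1849 and 1575 CPM. Positive cells made up 79.3%, 66.7%, 62.9% and 60.4%, and 78.3%, 60%, 59.5% and 58.3% at equal depth.

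The log2 fold of Irf7 over WT batch 2 was -0.61, -0.62 without well kw_tuft_173, -0.95 on plate 1 and -0.25 on plate 2, and it did not pass the rule. The sets overlap from 0 to 1575 CPM. In the no-cell well of batch 1 Irf7 was the one gene of the 10 with a read, at 2 of 9892 gene reads. The genes most like Irf7 from cell to cell were interferon-induced genes, given as a description. Over 7305 genes, by the mean of the within-set Spearman rho in 271 cells of equal depth, the nearest were Oas1g (0.45), Oas1a (0.40) and Rtp4 (0.39), and each rho was positive in all 4 sets, between 0.30 and 0.49. Oas1g and Oas1a are near-identical copies whose reads may be split between them, and cells of a set share a pool. The nearest genes to Tnfrsf11a, Ltbr, Relb and Nfkb2 reached at most 0.33, which is weak in sparse counts.

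Per length, in CPM divided by kilobases of exon, Irf7 was first in every set, at 126.7, 114.5 and 75.3 in the wild-type sets and 49.3 in the Aire-/- set. In the wild-type sets Nfkb2 and Ltbr came next, at 25.4 and 15.4 in June5, 27.3 and 24.3 in June29, and 15.1 and 27.8 in WT batch 2. In the Aire-/- set Aire was second at 39.9, ahead of Ltbr at 29.02, Nfkb2 at 22.3 and Relb at 16.3. Without well kw_tuft_173 Aire stood at 23.2, behind Ltbr at 29.8 and ahead of Nfkb2 at 21.95. In WT batch 2 the order went on with Fezf2 at 9.76, Relb at 5.25 and Aire at 4.95, and Relb and Aire there differ by less than the sets of the same genotype do. Cd80, Cd40 and Cd86 were the lowest of that set, at 0.46, 0.16 and 0.052.

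**Figure D4:**
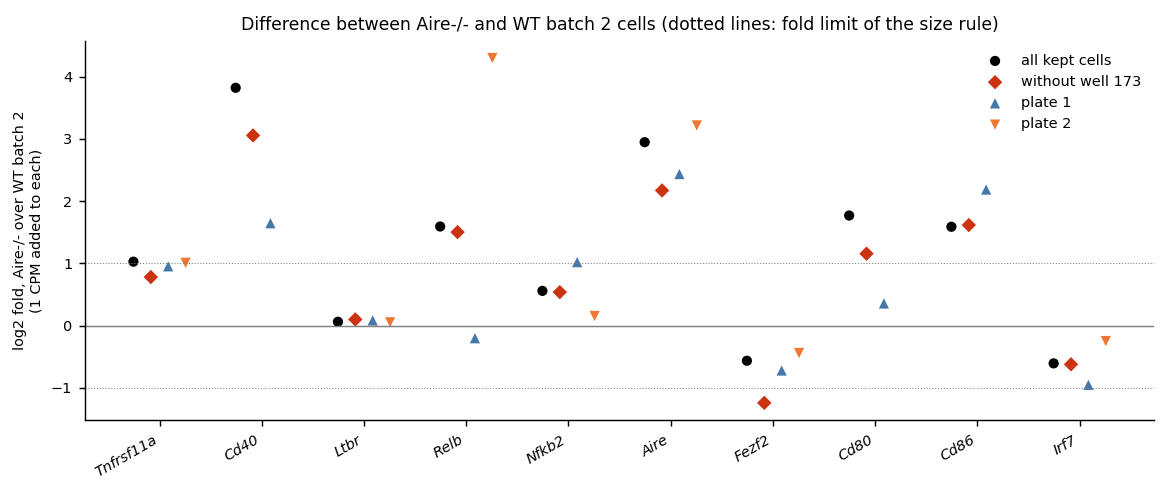
Log2 fold of each gene, Aire-/- over WT batch 2 with 1 CPM added to each, over all kept cells, without well kw_tuft_173, and within plates 1 and 2, with dotted lines at the fold limit of 1. Plate 2 values of Cd40, Cd80 and Cd86 are left out because no wild-type cell of that plate had a read. Aire lies above the limit in each choice, while Relb lies at -0.20 on plate 1 and 4.30 on plate 2.

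Of the 10 genes, 8 reached 20 CPM in a batch 2 set. Aire, Tnfrsf11a and Cd40 reached it in the Aire-/- set alone (Cd40 only with well kw_tuft_173) and Fezf2 in WT batch 2 alone, so the side of their folds is partly set by that minimum and no count or median over the 8 is given. Between wild-type sets none of the 10 passed the rule in either direction. In those comparisons 1.81% of genes passed upwards and 3.4% downwards in June29 against June5, 1.9% and 3.97% in WT batch 2 against June5, and 3.38% and 2.68% in WT batch 2 against June29. The comparisons between wild-type sets share sets with each other, and 2 of them share the WT batch 2 cells with the Aire-/- comparison.

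For Fezf2, Tnfrsf11a, Irf7, Ltbr, Nfkb2 and Cd86 a fold between wild-type sets was larger in size than the Aire-/- fold of the same gene. Fezf2 was 2.27 higher on the log2 scale in June29 than in June5, and Tnfrsf11a differed by -1.92. Ltbr was 0.83 higher in WT batch 2 than in June5, and Nfkb2 differed by -0.85 between WT batch 2 and June29. Irf7 shares were 16.4 points lower in WT batch 2 than in June5 at a log2 fold of -0.75.

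Counted per cell, the 10 genes were sparse and few cells held many of them. The median cell was positive for 2, 2 and 1 genes in the wild-type sets and for 2 in the Aire-/- set, and the highest for 5, 7, 7 and 8. At least 3 genes were positive in 34.5%, 31.03%, 23.6% and 42.7% of cells (42.1% without well kw_tuft_173), and in 34.8%, 21.2%, 21.5% and 36.9% at equal depth. None was positive in 13.8%, 14.9%, 11.2% and 6.25%.

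Well kw_tuft_173 was the cell with the most of them, 8 of the 10. It held 4792 reads of Aire (2542 CPM), 679 of Cd40, 586 of Fezf2, 486 of Irf7, 429 of Tnfrsf11a, 395 of Relb, 293 of Nfkb2 and 241 of Cd80, of 1885083 gene reads. It was still positive for 9 tuft markers, and it held 81 reads of Ptprc, reads of the dendritic cell or macrophage marker Lyz2 (64.7 CPM), and no B cell or thymocyte marker at 5 or more reads. Of the reads of its set it held 44.6% for Cd40, 43.4% for Aire, 41% for Fezf2, 40.4% for Cd80 and 18.4% for Tnfrsf11a. The 3 cells positive for 7 genes were June29 well 88, WT batch 2 well kw_tuft_57 and Aire-/- well kw_tuft_20, and Aire-/- well kw_tuft_20 had a tuft sum of 20411 CPM.

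A pair of wells described as controls of 50 cells gave single values of the same genes. Their genotypes are taken from titles and table columns, but each description names the count table of the other genotype, and the series text speaks of wells of 100 cells, so neither genotype nor cell number is certain. In the wild-type well Irf7 stood at 163.8 CPM, Nfkb2 at 68.01, Ltbr at 62.5, Relb at 34.7, Tnfrsf11a at 26.4, Fezf2 at 20.8, Cd80 at 18.04, Aire at 15.3 and Cd86 at 9.72, and Cd40 had 0 reads. In the well labelled Aire-/- Irf7 stood at 193, Nfkb2 at 35.2, Tnfrsf11a at 29.7, Aire at 25.9, Relb at 22.2, Cd80 at 20.4 and Ltbr at 14.8, with 2 reads of Cd40 and 0 of Fezf2 and Cd86. The counting intervals of the pair overlap for 8 of the 10 genes, Aire included (7.62 to 27.3 and 14.2 to 43.5 CPM). They do not for Ltbr (45.6 to 83.6 and 6.40 to 29.2 CPM) or Fezf2 (11.7 to 34.3 and 0 to 6.84 CPM), at 720527 and 539621 gene reads, and 1 well each gives no spread between wells.

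Other genes of the same pathways were taken from lists chosen by function, and MHC class II was the one of them with genes past the rule. Of 9 MHC class II genes compared, 4 passed upwards, H2-Aa, H2-Eb1, Cd74 and H2-DMa, and 0 downwards. Over all 8267 genes compared, 1.02% passed upwards and 0.399% downwards. The median log2 fold of the 9 was 1.65 (0.998 without well kw_tuft_173), where the median over all genes compared was -0.03 and 47.7% had positive folds. H2-Aa, an MHC class II alpha chain, stood at 331 CPM (WT batch 2) and 1301 CPM (Aire-/- set), a log2 fold of 1.97 and 1.20 without well kw_tuft_173. H2-DMa, which loads peptide, stood at 37.3 and 102.9 CPM, with 1.44 and 1.17. Without well kw_tuft_173 these 2 still passed, where 1.13% of all genes passed upwards. H2-Eb1 (0.998, just under the limit) and the invariant chain Cd74 (0.81) did not.

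Of 21 NF-kB pathway genes compared (receptor adaptors, kinases, subunits and inhibitors) 0 passed in either direction, 13 had positive folds and the median was 0.06 (0.0071 without well kw_tuft_173). Of 4 further costimulatory or adhesion genes 0 passed. Some of these 4 reached 20 CPM in the Aire-/- set alone, so no median over them is given. Of 2 ligand or decoy genes 0 passed, and their median is left out because Tnfrsf11b reached 20 CPM in that set alone. One is Tnfrsf11b, the decoy receptor of RANK ligand, with 76.7% of its Aire-/- reads in well kw_tuft_173 and a log2 fold of 2.66 that was 0.79 without it. The other is Ltb, lymphotoxin beta, a ligand chain of the lymphotoxin beta receptor. Ltb had wild-type levels of 57.2, 26.1 and 40.5 CPM (June5, June29 and WT batch 2 in turn) and an Aire-/- level of 79.3 CPM, and was positive in 31.03%, 18.4%, 21.3% and 39.6% of cells. Its log2 fold was 0.95 (0.99 without the well), under the limit of 1. Tnfsf11 (RANK ligand), Cd40lg (CD40 ligand) and Tnfsf14, another ligand of the lymphotoxin beta receptor, stood between 0 and 4.58 CPM in every set. Lta, lymphotoxin alpha, reached 6.40 CPM in the Aire-/- set, with 99.8% of those reads in well kw_tuft_173.

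Of 20 Aire partner genes 0 passed and 5 had positive folds (median -0.37), and of 3 other mature mTEC genes 0 passed (median -0.03). Of 19 interferon genes 0 passed and 6 had positive folds (median -0.31). Without well kw_tuft_173 Bst2, the interferon-induced gene of tetherin, passed downwards at -1.57, and with it its log2 fold was -1.47 and its shares 15.6% against 30.3%. Of the 7 listed Aire-dependent antigens 6 were matched and 1, Csn2, a casein, could be compared, at 7.68 CPM (WT batch 2) and 69.4 CPM (Aire-/- set), with 70.9% of the latter in well kw_tuft_173 and a log2 fold of 3.02, or 1.33 without that well. Tuft markers (12 compared, median 0.08), cortical epithelial (3, 0.78), B cell (2, 0.28), dendritic cell or macrophage (1, 1.61) and endothelial markers (2, -0.47) had 0 past the rule. Of immature mTEC (3 compared) and thymocyte markers (1 compared) 0 passed as well. The thymocyte marker and most of these immature mTEC markers reached 20 CPM in WT batch 2 alone, so no median is given for these lists. No fibroblast marker could be compared.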

How the data were processed

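The values used were counts from the deposited tables, unnormalized whole reads for each gene in each well. STAR, Subread, featureCounts 1.5.3, R 3.4.0 and the build GRCm38 appear, with no role or order, in the submitters' processing notes, and the annotation is not given in the sources used here. The authors also deposited a score per gene and well, whose making is not stated; it served only to choose wells in an alternative. Other labels deposited by the authors gave genotypes and, under the heading Batch, the groups called plates here. Of 48887 entries, 92 were spike-ins, and 360 without a gene name held 0.032% of gene reads.

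Kept wells had at least 10000 gene reads, 1000 genes and at most 20% mitochondrially encoded reads. No doublet caller was run. Reads were summed per set and scaled to gene reads (CPM). Equal depth means thinning to 231697 reads (23, 85, 79 and 84 cells), leaving out shallower cells. Thinning and the size rule were tried on simulated data, in which the changed genes had higher levels and shares than most of the 10 genes have. That trial says nothing of the rule for sparser genes. Plate 1 and plate 2 values are within-plate. For genes positive in at least 10% of cells of every set, the 3 most alike were found, and those of Irf7 are named. All 10 members and list genes past the size rule are named, and Dnmt3l, Ptprc, Lyz2, Csn2, Tnfrsf11b and the ligands were added after their values were seen. Positions are from GENCODE M21 and sequences from RefSeq. The members, lists and rules were chosen with earlier results of these data known. Alternatives covered cells, plates, depth, scaling, added CPM and read minimum. The 2 no-cell wells of batch 2 were not analysed here. Python 3.11.15, numpy 2.4.6, pandas 2.3.3 and scipy 1.17.1 were used.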

Additional observations from a re-analysis of the deposited data

How the results depend on the processing

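Between the Aire-/- set and WT batch 2, 1 member passed the size rule, where 1.02% of genes passed upwards and 0.399% downwards. On plate 1, 2 members passed (Aire and Nfkb2), where 2.65% of genes passed upwards. On plate 2, 2 passed (Aire and Relb), where 3.62% of genes did. With the mean of per-cell CPM, 2 passed (Aire and Nfkb2). Aire passed in each of the 12 alternatives. In June29 against June5, 0 members passed, and 1 (Fezf2) was higher without cells holding haematopoietic markers. In WT batch 2 against June5, 0 were lower, but 2 (Tnfrsf11a and Relb) were without those cells, 1 (Irf7) after thinning and 1 (Irf7) by the mean of per-cell CPM. The cause of these changes was not tested. With all kept cells, 1.81% of genes passed upwards in June29 against June5 and 3.97% downwards in WT batch 2 against June5. No share over all genes is at hand for the alternatives by thinning, by per-cell means or without haematopoietic-marker cells. Their counts of members can therefore not be set against a background. The alternatives between wild-type sets that left out haematopoietic-marker cells, took per-cell means or added 5 CPM, and the shares and list medians without well kw_tuft_173, were chosen after seeing the data. Of single-gene folds 203 stayed within counting error and the others moved beyond it, and of shares 120 stayed and 10 moved. No paired analysis was possible because each set is 1 pool and no result comes from a test. Cd40, Cd80 and Cd86 rest on few cells, so depth and cell number limit them most.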
